A study of Mus musculus with 24 samples.

Results

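The comparison set livers of human CAR mice given phenobarbital against livers of wild-type mice given the same drug. Its members were the 2 arrays of human CAR mice and the 2 arrays of wild-type mice titled as treated with phenobarbital, 4 of the 24 arrays of the series, with 1 mouse per array. The human CAR mice lacked mouse CAR (mCAR -/-) and expressed human CAR from a transgene whose promoter, that of mouse albumin, is active in hepatocytes. The wild-type mice carried mouse CAR only. Human CAR and wild-type mice on corn oil, the vehicle, served as the untreated state (2 arrays each), and mCAR knockout mice without the transgene under phenobarbital are quoted beside some results (2 arrays). Wild-type mice given the CAR ligands CITCO or TCPOBOP are quoted for 1 gene (2 arrays each). All of these mice were labelled female, of mixed C57BL/6x129Sv background and fed normal chow, and their age was not given. Phenobarbital was given at 100 mg/kg per day and injections were intraperitoneal, 24 h apart, on 3 days, with livers taken 6 h after the last. The transgenic line was bred to the knockout over 2 breeding cycles. The labels number the mice of a group as replicates, and nothing in them ties mice to litters, cages or days. With 2 mice a side, an exact two-sided permutation test of a single gene cannot go below p = 0.333, so the p-values come from models that pool the spread, over all 24 arrays unless another set of arrays is named.

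The constitutive androstane receptor (CAR) is the product of Nr1i3, a nuclear receptor of hepatocytes that binds DNA together with RXR and switches on genes for the uptake, oxidation, conjugation and export of drugs. Phenobarbital does not need to bind CAR: it acts on a kinase pathway upstream and moves CAR from the cytoplasm into the nucleus, and per the labels it does so for the mouse and the human receptor. Mouse and human CAR differ in the part that binds ligands. Cyp2b10, a cytochrome P450, is the usual readout of CAR activity in mouse liver, and glutathione transferases, carboxylesterases and UDP-glucuronosyltransferases are further known targets.

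Values are log2 expression on arrays normalised together by RMA, and differences are human CAR minus wild type on that log2 scale, with the standard error (SE) of a limma fit. Genes with a Benjamini-Hochberg adjusted p under 0.05 over 9164 genes were called. RMA narrows differences, above all at low signal, so folds are those of the array signal. A value below the 40th percentile of its array (4.93 to 5.08 on the 24 arrays) is described as below the dim limit.

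The 2 human CAR arrays differed from each other. Over the 9164 genes they correlated at 0.955, and 328 genes lay more than 2-fold apart between them. The wild-type pair correlated at 0.993, with 13 genes more than 2-fold apart. On the leading principal component, which held 21.7% of the variance of all 24 arrays, human CAR replicate 1 lay at -37.4 and replicate 2 at -6.65, while the wild-type pair lay at -1.80 and -1.99. Another array, replicate 2 of the knockout mice under phenobarbital, lay at -22.3, and these were the 2 arrays that stood apart. The 3' over 5' difference of the Actb and Gapdh control probe sets, a sign of RNA integrity, was 0.547 and 0.605 on the human CAR arrays, against 0.412 and 0.365 on the wild-type arrays. Its part in the results was not tested. Each human CAR array is therefore also given alone.

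Hepatocyte markers were high in both genotypes. None of the 13 hepatocyte markers tested (of 16 listed) was called, and their summed linear signal was 72435 and 76405 in human CAR livers, against 73584 and 71299 in wild-type livers. The transcript of mouse Nr1i3 read 5.60 and 5.10 in human CAR livers, against 7.98 and 7.92 in wild-type livers. Both human CAR values lay near those of the knockout livers under phenobarbital, 5.20 and 5.38, and the groups did not overlap. The difference was -2.60 (SE 0.19, adjusted p = 1.93e-06 in limma), and a like one was present on corn oil (-2.26, adjusted p = 1.55e-05). Which part of Nr1i3 this probe set reads, and whether the deletion removed it, was not analysed here. No value for the human receptor's transcript was used. In whole liver, fewer cells of a type and less RNA per cell cannot be told apart.

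Under phenobarbital 201 genes, 2.19% of the 9164 tested, differed between human CAR and wild type by the adjusted p. In human CAR livers 69 of them were higher (0.753% of genes) and 132 lower (1.44%), and 31 and 47 of these differed at least 2-fold. An unadjusted p under 0.05 held for 1680 genes, 18.3%. The 2 arrays of one genotype lay wholly above or below those of the other for 47.7% of all genes, 22.6% with human CAR above and 25.2% with it below, so that separation alone was common. The median difference was -0.02 over all genes.

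How many genes were called depended on which of the 4 arrays were used. Human CAR replicate 1 alone against the wild-type pair gave 1341 calls, 14.6% of genes, with 514 higher and 827 lower. Human CAR replicate 2 alone gave 15 calls (0.164%), 1 higher and 14 lower. Of the 201 calls of both arrays together, 196 were also made with replicate 1 alone and 14 with replicate 2 alone. Without wild-type replicate 1 there were 41 calls and without wild-type replicate 2 there were 17. When one group had a single array, that array was assumed to vary like the other groups.

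The distances of the 2 human CAR mice from wild type also differed. Replicate 1 lay farther from the wild-type mean than replicate 2 in 61 of the 69 higher genes and in 117 of the 132 lower ones. The higher genes stood a median 1.07 above the wild-type mean in replicate 1 and 0.66 in replicate 2. The lower genes stood at a median of -1.0 in replicate 1 and -0.67 in replicate 2. Over all genes, 517 lay more than 2-fold from the wild-type mean in replicate 1 and 109 in replicate 2.

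**Figure D1:**
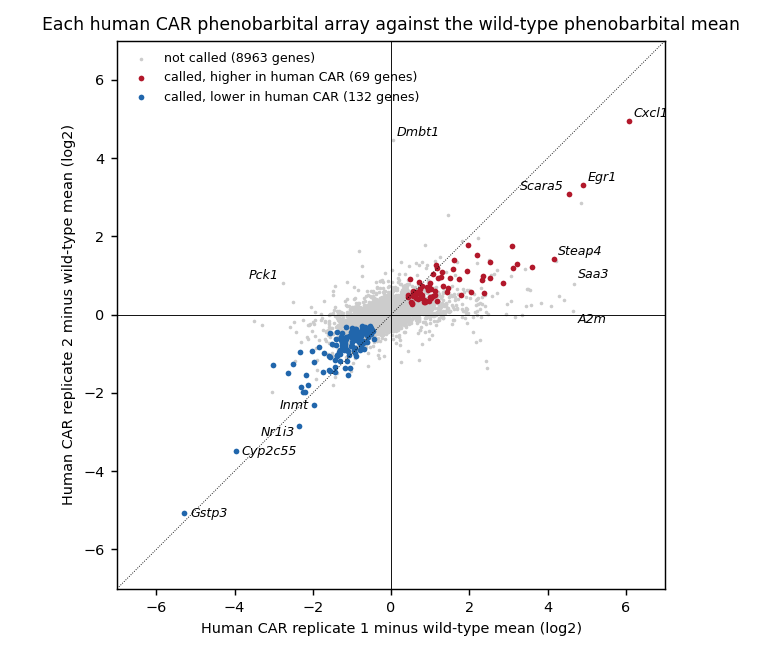
Each point is a gene, placed by the log2 difference of human CAR replicate 1 (horizontal axis) and replicate 2 (vertical axis) from the mean of the 2 wild-type phenobarbital arrays, with the 69 genes called higher in red and the 132 called lower in blue. Most red points lie to the right of the dotted line of equality, since 61 of the 69 were farther from wild type in replicate 1, while Gstp3, Cyp2c55, Nr1i3 and Inmt lie near it.

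Which called genes did not hang on 1 array could be counted. Leaving out each of the 4 arrays in turn, 13 genes were called every time, and all 13 were lower in human CAR livers. They were Gstp3, Cyp2c55, Nr1i3, Inmt, Rarb, Gstt3, Gsta4, Ces2a, Slc25a37, Gstm1, Fhit, Cdk18 and Slc13a2, with differences from -5.18 to -1.15. Of the 63 named genes that were called, the other 50 lost their call without at least 1 of the 4 arrays.

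Of the P450s, the usual CAR target Cyp2b10 was high in both genotypes under phenobarbital. Cyp2b10 read 11.22 and 11.37 in human CAR livers, against 11.88 and 12.06 in wild-type livers. Both human CAR values lay below both wild-type values, by less than 1 log2 unit. The difference of -0.68 (SE 0.38) was not called (adjusted p = 0.379 in limma). On corn oil Cyp2b10 read 8.22 and 8.82 in human CAR livers and 4.66 and 5.22 in wild-type livers, a difference of 3.58 (adjusted p = 0.000272). From corn oil to phenobarbital the mean thus moved by 2.78 in human CAR mice and by 7.03 in wild-type mice, and these effects differed by -4.26 (SE 0.54, adjusted p = 0.00464). In knockout livers under phenobarbital it read 5.19 and 5.71, below both genotypes. This probe set may also read close relatives of Cyp2b10, since its type allows shared sequence, and the other 2 probe sets of the gene gave -0.96 and -0.81.

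Cyp2c55, a P450 that oxidises arachidonic acid, separated the genotypes far more. It read 7.41 and 7.90 in human CAR livers, against 11.01 and 11.74 in wild-type livers. Both human CAR arrays were low and the groups lay over 3 log2 units apart. The difference was -3.72 (SE 0.44, adjusted p = 0.000534), a signal 13.2-fold lower. On corn oil the pairs were alike, at 6.08 and 5.91 in human CAR livers and 6.36 and 6.54 in wild-type livers. Phenobarbital livers stood above corn oil livers by 1.66 in human CAR mice and by 4.93 in wild-type mice, and the effects differed by -3.27 (SE 0.62, adjusted p = 0.0461).

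Cyp1a2, which oxidises caffeine and aromatic amines, read 10.53 and 10.67 in human CAR livers, against 11.85 and 11.84 in wild-type livers. The 2 human CAR mice were alike here, and the difference of -1.24 (SE 0.21) was called (adjusted p = 0.00791). Cyp2c54 was also lower, at 10.78 and 10.93 in human CAR livers against 12.25 and 12.46 in wild-type livers (-1.50, SE 0.31, adjusted p = 0.0211). On corn oil Cyp2c54 read 8.53 and 9.77 in human CAR livers and 10.68 and 10.36 in wild-type livers (-1.38, adjusted p = 0.178), and the effects of phenobarbital differed by -0.13 (adjusted p = 0.956). Cyp2g1 was called lower too, and its human CAR values of 4.45 and 4.53 lay below the dim limit, against 5.28 and 5.47 in wild type. Not every P450 differed. Cyp3a11, the main mouse P450 for many drugs, read 12.34 and 12.34 in human CAR livers and 12.40 and 12.61 in wild-type livers (-0.16, SE 0.15, adjusted p = 0.649).

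Of 33 listed P450s and their partners, 26 passed the filter on dim values, and of these 0 were higher and 5 lower in human CAR livers, beside 0.753% and 1.44% of all genes. Their median difference was -0.51, with -0.70 in replicate 1 alone and -0.25 in replicate 2 alone, against -0.02 over all genes. On corn oil the same genes had a median difference of 0.12. The list's summed linear signal was 39389 and 44552 in human CAR livers, against 56674 and 62885 in wild-type livers.

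**Figure D2:**
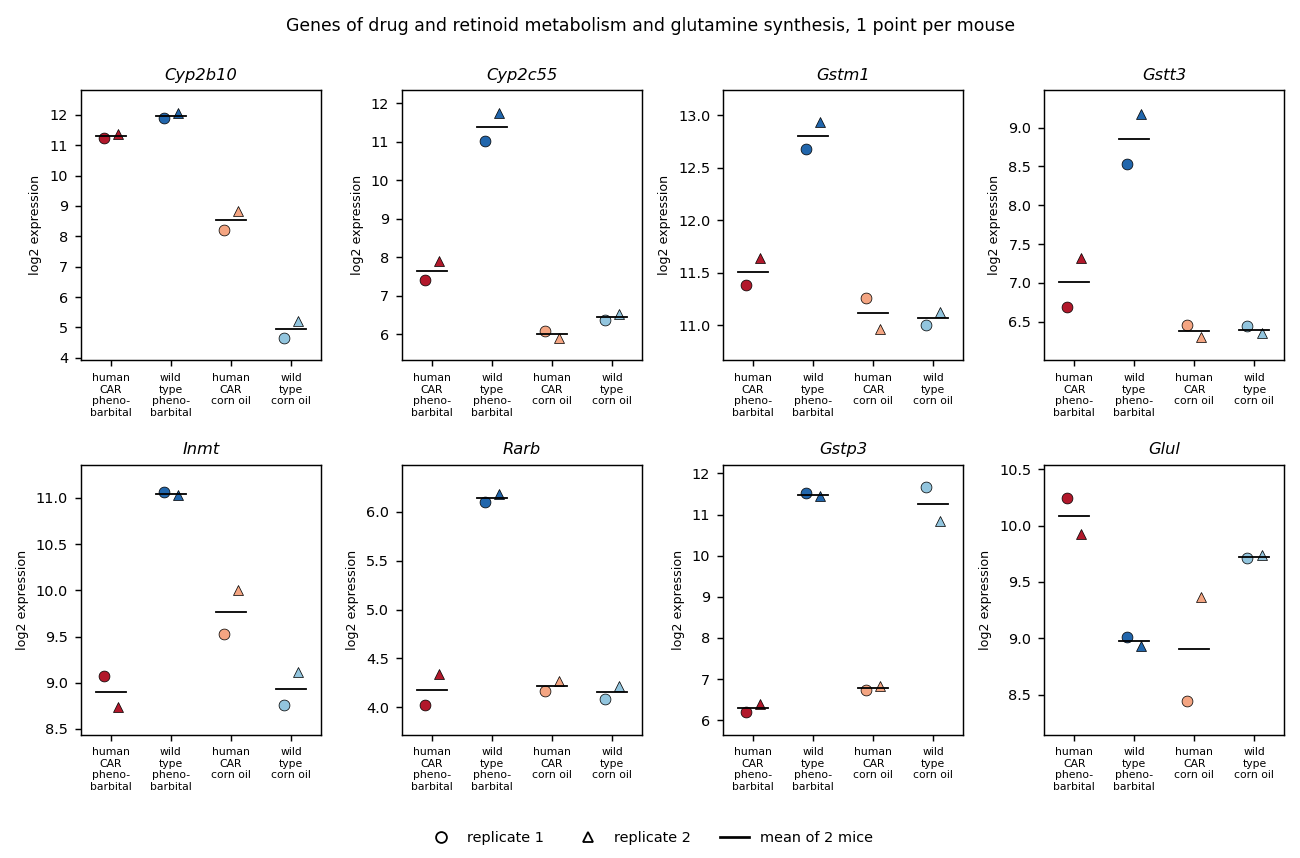
Log2 expression of 8 genes (1 panel each), with 1 point per mouse, circles for replicate 1, triangles for replicate 2 and a bar at the mean of 2 mice, for human CAR and wild type under phenobarbital and then on corn oil. Cyp2c55, Gstm1, Gstt3, Inmt and Rarb were highest on the wild-type phenobarbital arrays, Cyp2b10 was high in both genotypes under phenobarbital, and Gstp3 was low in human CAR mice on both treatments.

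Glutathione transferases, which couple glutathione to reactive compounds, gave the most calls of any list. Of 22 listed members 20 were on the array and passed the filter, and 10 of the 20 were called lower and 0 higher, beside 1.44% and 0.753% of all genes. The difference was negative for all 20, and for 16 both human CAR arrays lay below both wild-type arrays, beside 25.2% of all genes. The median of the 20 was -0.81, with -0.93 in replicate 1 and -0.74 in replicate 2, so both human CAR mice showed it. On corn oil the median was 0.00. The list was chosen with results of these arrays known, and its members partly share sequence.

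Gstm1, an abundant mu class enzyme, read 11.38 and 11.64 in human CAR livers, against 12.68 and 12.94 in wild-type livers. The human CAR pair lay more than 1 log2 unit below the wild-type pair. The difference was -1.30 (SE 0.17, adjusted p = 0.00122), with -1.43 in replicate 1 and -1.17 in replicate 2. On corn oil the 4 mice of both genotypes lay between 10.97 and 11.26, below both human CAR phenobarbital values. Phenobarbital moved the mean by 0.40 in human CAR mice and by 1.74 in wild-type mice, and the effects differed by -1.35 (SE 0.24, adjusted p = 0.0359).

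The mu class members Gstm2 and Gstm3 differed more. Gstm2 read 7.81 and 8.03 in human CAR livers, against 9.47 and 10.55 in wild-type livers (-2.09, SE 0.31, adjusted p = 0.0027). Gstm3 read 9.77 and 10.05 in human CAR livers, against 11.59 and 12.44 in wild-type livers (-2.11, SE 0.36, adjusted p = 0.00733). In both genes the human CAR mice were close to each other, the wild-type mice were not, and the groups did not overlap. The Gstm3 probe set is of the type that can read relatives.

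Theta and alpha class members followed. Gstt3 read 6.69 and 7.32 in human CAR livers, against 8.54 and 9.18 in wild-type livers (-1.85, SE 0.25, adjusted p = 0.00144), beside corn oil values from 6.30 to 6.45 over both genotypes. Gsta4, which clears the lipid peroxidation product hydroxynonenal, read 7.39 and 7.52 in human CAR livers, against 8.73 and 9.20 in wild-type livers (-1.51, SE 0.21, adjusted p = 0.00147). For each the groups were clearly apart, and replicate 2 alone gave -1.54 for Gstt3 and -1.44 for Gsta4.

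Gstp3, of the pi class, had the lowest difference of all. It read 6.19 and 6.40 in human CAR livers, against 11.53 and 11.44 in wild-type livers. The human CAR values were as low as those of knockout livers under phenobarbital, 6.35 and 6.31. The difference was -5.18 (SE 0.61, adjusted p = 0.000534), a signal 36.4-fold lower, and it was the single gene called when the 4 arrays were fitted without the other 20 (adjusted p = 0.00239). The gap was also present on corn oil, where Gstp3 read 6.73 and 6.83 in human CAR livers and 11.67 and 10.83 in wild-type livers (-4.47, adjusted p = 0.00496). Its level also varied among wild-type mice, between and within treatments, with 6.54 and 6.66 in wild-type mice given the ligand CITCO and 6.81 and 10.14 in those given the ligand TCPOBOP. The related Gstp1, named after its values were seen, read 11.83 and 12.44 in human CAR livers and 12.28 and 12.45 in wild-type livers, and was not called (-0.23, adjusted p = 0.585).

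**Figure D3:**
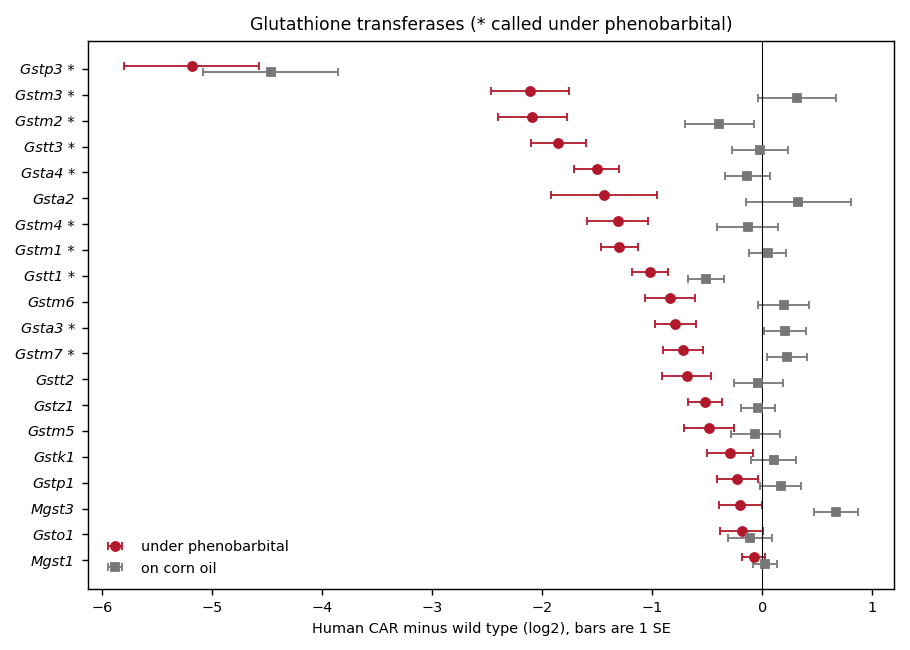
Log2 difference of human CAR minus wild type for 20 glutathione transferases (rows), under phenobarbital (red circles) and on corn oil (grey squares), with bars of 1 SE and an asterisk for the 10 called under phenobarbital. All 20 red points lie left of 0, whereas the grey points lie on both sides of 0, with that of Gstp3 at -4.47.

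Ester hydrolysis, glucuronidation and transport showed fewer calls. Among 22 tested carboxylesterases and aldehyde, epoxide and flavin enzymes (of 28 listed), 4 were lower and 0 higher in human CAR livers, beside 1.44% and 0.753% of all genes, with a median difference of -0.47. Ces2a, a carboxylesterase that hydrolyses ester drugs, read 10.88 and 10.97 in human CAR livers, against 12.23 and 12.37 in wild-type livers (-1.38, SE 0.20, adjusted p = 0.00192). The human CAR mice were nearly equal and the groups far apart, beside corn oil values from 9.94 to 10.28 over both genotypes. Ces1d (-1.05), Aox1, an aldehyde oxidase (-0.93), and Ephx1, microsomal epoxide hydrolase (-0.85), were called lower as well. Ces1d gave -1.07 in replicate 1 and -1.03 in replicate 2, but lost its call in 11 of 15 alternatives. Aox1 gave -1.25 in replicate 1 and -0.61 in replicate 2, and Ephx1 gave -0.99 and -0.71.

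Of 15 tested genes for glucuronidation and sulfation (25 listed), Ugt2b34 alone was called, at 10.52 and 10.89 in human CAR livers against 11.44 and 11.40 in wild-type livers (-0.72, SE 0.14, adjusted p = 0.0137). The list's median was -0.30, with -0.48 in replicate 1 and -0.10 in replicate 2. Among 8 tested efflux pumps (12 listed), 2 were lower and 0 higher. The counts of both lists stand beside 1.44% of all genes lower and 0.753% higher. Abcc3, which exports conjugates into blood, read 9.81 and 9.80 in human CAR livers, against 10.38 and 10.68 in wild-type livers (-0.73, SE 0.14, adjusted p = 0.0158). Abcc6 read 6.45 and 7.04 in human CAR livers, against 7.66 and 7.67 in wild-type livers (-0.92, adjusted p = 0.0377). Of 8 tested uptake transporters (10 listed) 0 were called by limma after adjustment. Slco1a4, an organic anion carrier, was the farthest, at 7.07 and 6.90 in human CAR livers against 8.34 and 8.63 in wild-type livers (-1.50, SE 0.39, adjusted p = 0.0601).

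Rarb, the retinoic acid receptor beta, was lower in human CAR livers under phenobarbital. It read 4.02 and 4.34 in human CAR livers, against 6.10 and 6.18 in wild-type livers. Both human CAR values were below the dim limit and the groups did not overlap, so the signal was at least 2.14-fold lower. The fitted difference was -1.96 (SE 0.19, adjusted p = 6.35e-05). On corn oil Rarb lay between 4.09 and 4.27 in both genotypes, also below the dim limit. The wild-type phenobarbital pair was thus the one pair of the 4 above that limit. The fitted difference of the phenobarbital effects was -2.02 (SE 0.27, adjusted p = 0.00464), a size that rests on values below the limit in the other 3 pairs.

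Of 17 retinoid genes tested (24 listed), Rarb was the single one called, beside 1.44% of all genes lower. The median difference was -0.15, with -0.40 in replicate 1 and -0.02 in replicate 2. Cyp26a1, the enzyme that degrades retinoic acid and itself a known target of retinoic acid receptors, was looked at after its values were seen. It read 8.59 and 8.98 in human CAR livers, against 9.61 and 9.68 in wild-type livers, and was not called (-0.86, SE 0.48, adjusted p = 0.378). Its corn oil values were 7.12 and 6.47 in human CAR livers and 7.46 and 6.56 in wild-type livers, so both phenobarbital pairs lay above both corn oil pairs.

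Promoters of the 13 genes called whichever array was left out were searched on both strands for the hexamers AGGTCA and AGTTCA, known to be bound by CAR and RXR, alone and as pairs 4 bases apart, and for GTTCA repeated after 6 bases, a spacing known from retinoic acid response elements. RefSeq promoters (GRCm38.p6, 250 bases before to 50 after the start) were given for 11 of the 13. AGGTCA was found in 3 of the 11, in Ces2a, Fhit and Gstm1, beside 16.3% of 32851 promoters, and AGTTCA in 1, Rarb, beside 14%. Pairs 4 bases apart were found in 0 of the 11. Of all 32851 promoters 5 held AGGTCA in both places, 4 held AGTTCA in both and 0 held a mixed pair. The count of 0 among 11 therefore shows no lack of such pairs. The GTTCA repeat, which overlaps AGTTCA, was found in Rarb, 52 bases before the start. Cyp26a1 is not among the 13 and was added by choice, and it held the repeat on the minus strand, 32 bases before the start. Of all promoters 0.0761% (25) held it. The repeat was picked as one already known from such elements, so these matches are a description and that share measures no chance. These are matches of letters, not sites shown to be bound. The sequences of Rarb and Cyp26a1 show that repeat, and those of Gstm1 and Ces2a show AGGTCA in a pair of genes that held their call, each in capitals and 5′ to 3′ on the gene's strand: Rarb at chr14:16575427-16575726 (minus), Cyp26a1 at chr19:37697558-37697857 (plus), Gstm1 at chr3:108017769-108018068 (minus) and Ces2a at chr8:104733753-104734052 (plus).
Rarb: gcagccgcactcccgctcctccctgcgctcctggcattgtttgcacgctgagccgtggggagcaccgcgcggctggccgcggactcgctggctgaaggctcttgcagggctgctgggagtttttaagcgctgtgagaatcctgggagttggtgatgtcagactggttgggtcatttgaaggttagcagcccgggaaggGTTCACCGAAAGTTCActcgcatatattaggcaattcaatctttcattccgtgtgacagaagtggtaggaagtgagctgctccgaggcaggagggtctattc
Cyp26a1: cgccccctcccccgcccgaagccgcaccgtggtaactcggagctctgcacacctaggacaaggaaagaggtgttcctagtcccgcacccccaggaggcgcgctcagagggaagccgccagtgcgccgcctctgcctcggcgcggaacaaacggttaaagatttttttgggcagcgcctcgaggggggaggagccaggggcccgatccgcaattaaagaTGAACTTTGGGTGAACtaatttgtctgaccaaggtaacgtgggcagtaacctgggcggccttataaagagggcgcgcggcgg
Gstm1: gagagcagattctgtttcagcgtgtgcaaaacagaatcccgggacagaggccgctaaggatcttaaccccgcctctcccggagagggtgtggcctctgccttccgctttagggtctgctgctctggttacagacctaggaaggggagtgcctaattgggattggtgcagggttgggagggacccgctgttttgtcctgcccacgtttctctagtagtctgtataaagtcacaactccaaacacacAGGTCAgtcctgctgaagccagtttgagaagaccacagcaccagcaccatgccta
Ces2a: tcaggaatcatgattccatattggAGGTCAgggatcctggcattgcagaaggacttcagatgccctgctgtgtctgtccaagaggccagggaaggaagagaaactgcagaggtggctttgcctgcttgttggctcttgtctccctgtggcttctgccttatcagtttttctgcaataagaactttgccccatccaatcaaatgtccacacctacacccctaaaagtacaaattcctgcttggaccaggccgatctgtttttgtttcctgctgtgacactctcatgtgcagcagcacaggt

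Inmt, a methyltransferase of tryptamine and other amines, was lower in human CAR livers. Under phenobarbital it read 9.07 and 8.74 in human CAR livers, against 11.06 and 11.03 in wild-type livers. The wild-type mice were nearly equal and both human CAR mice lay about 2 log2 units below them, with -1.97 in replicate 1 and -2.31 in replicate 2. The difference was -2.14 (SE 0.30, adjusted p = 0.00154). On corn oil Inmt read 9.53 and 10.00 in human CAR livers and 8.76 and 9.12 in wild-type livers (0.83, adjusted p = 0.491). The phenobarbital mean therefore stood -0.86 from the corn oil mean in human CAR mice and 2.11 in wild-type mice, and the effects differed by -2.97 (SE 0.42, adjusted p = 0.00723).

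Of 17 tested genes of methyl group metabolism (20 listed) Inmt was the one lower and Bhmt, which remethylates homocysteine from betaine, the one higher. Of all genes 1.44% were lower and 0.753% higher. Bhmt read 11.25 and 11.67 in human CAR livers, against 10.89 and 10.63 in wild-type livers. The groups did not overlap, and the difference was 0.70 (SE 0.16, adjusted p = 0.0387). Bhmt lost its call whichever of the 4 arrays was left out, and in 7 of 15 alternatives in all. On corn oil it read 11.23 and 11.62 in human CAR livers and 11.96 and 11.96 in wild-type livers. Its phenobarbital effect differed by 1.23 (SE 0.23, adjusted p = 0.0461), with the human CAR mean 0.03 and the wild-type mean -1.20 from corn oil. The list's median difference was -0.22.

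Glul, glutamine synthetase of the hepatocytes next to the central vein, was higher in human CAR livers. It read 10.24 and 9.92 in human CAR livers, against 9.01 and 8.93 in wild-type livers. Both human CAR mice lay above both wild-type mice, by 1.27 in replicate 1 and 0.95 in replicate 2. The difference was 1.11 (SE 0.25, adjusted p = 0.0292), and a second probe set gave 1.42. Glul lost its call in 7 of 15 alternatives. On corn oil the order was the other way, with 8.45 and 9.37 in human CAR livers and 9.72 and 9.74 in wild-type livers, though that difference was not called (-0.82, adjusted p = 0.331). The effects of phenobarbital differed by 1.93 (SE 0.35, adjusted p = 0.0372).

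Of 20 pericentral genes tested (23 listed) Glul was higher and 2 were lower (Cyp1a2 and Lect2), beside 0.753% and 1.44% of all genes. The difference was positive for 9 of the 20, and the median was -0.03. Lect2, a secreted hepatocyte protein, read 8.87 and 9.18 in human CAR livers, against 10.19 and 10.17 in wild-type livers (-1.16, SE 0.25, adjusted p = 0.0263). None of 17 tested periportal genes was called by limma after adjustment (20 listed, median 0.00, with -0.16 in replicate 1 and 0.25 in replicate 2).

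The remaining genes that held their call lay outside drug metabolism. Fhit, a hydrolase of diadenosine triphosphate, read 5.51 and 5.32 in human CAR livers, against 6.53 and 6.84 in wild-type livers (-1.27, SE 0.17, adjusted p = 0.00122). Cdk18, a cyclin-dependent kinase, read 6.50 and 6.81 in human CAR livers, against 7.88 and 7.86 in wild-type livers (-1.22, SE 0.16, adjusted p = 0.00122). In both genes the pairs were tight and about 1 log2 unit apart. Slc13a2, a carrier of citrate and other dicarboxylates, read 5.38 and 5.31 in human CAR livers, against 6.40 and 6.60 in wild-type livers (-1.15, SE 0.15, adjusted p = 0.00122). Slc25a37, mitoferrin 1, which brings iron into mitochondria, read 6.14 and 5.69 in human CAR livers, against 7.21 and 7.24 in wild-type livers (-1.31, SE 0.18, adjusted p = 0.00154). All 4 genes had corn oil differences between 0.15 and 0.25, none of them called, and all 4 passed the test for a different phenobarbital effect, at -1.42, -1.38, -1.31 and -1.56 for Fhit, Cdk18, Slc13a2 and Slc25a37 in that order. Their human CAR phenobarbital means stood below their corn oil means, by 0.11 to 0.62, and their wild-type means above, by 0.76 to 1.41.

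The lower genes also included several whose 2 human CAR mice were far apart. Irs1, a docking protein of the insulin receptor, read 5.07 and 6.79 in human CAR livers, against 8.19 and 7.97 in wild-type livers (-2.15, SE 0.40, adjusted p = 0.012). Stbd1, a glycogen-binding protein, read 5.96 and 7.12 in human CAR livers, against 8.55 and 8.64 in wild-type livers (-2.06, SE 0.41, adjusted p = 0.0165). Replicate 1 was the lower mouse in both, and replicate 2 alone still lay -1.29 from wild type for Irs1 and -1.48 for Stbd1. Car8 (-1.89), Lsm10 (-1.64) and Sgpl1, sphingosine phosphate lyase (-1.59), had the same order of the 2 mice. Hsd3b3, a steroid dehydrogenase, was lower too, but its human CAR mice were closer to each other. It read 6.20 and 6.66 in human CAR livers, against 8.78 and 8.23 in wild-type livers (-2.08, SE 0.51, adjusted p = 0.046), by a probe set that can read relatives. Hsd3b3 lost its call in 9 of 15 alternatives.

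The largest positive differences among called genes were those of Cxcl1 and Egr1. Cxcl1, a chemokine that attracts neutrophils, read 10.42 and 9.28 in human CAR livers, against 4.50 and 4.18 in wild-type livers. Both wild-type values lay below the dim limit, so the signal was at least 28.4-fold higher in human CAR livers, and the fitted difference was 5.51 (SE 1.14, adjusted p = 0.021). Against corn oil it was the wild-type phenobarbital pair that stood apart: Cxcl1 on corn oil read 10.38 and 6.81 in human CAR livers and 9.04 and 10.24 in wild-type livers.

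Egr1, an immediate early transcription factor, had a similar layout with more spread. It read 10.31 and 8.72 in human CAR livers, against 5.46 and 5.36 in wild-type livers (4.11, SE 0.90, adjusted p = 0.0275). Corn oil values were 8.40 and 5.40 in human CAR livers and 7.34 and 6.56 in wild-type livers, so the untreated mice ranged over 3 log2 units. Junb read 8.56 and 7.22 in human CAR livers, against 5.64 and 5.28 in wild-type livers (2.43, SE 0.59, adjusted p = 0.044). Zfp36, which speeds the decay of inflammatory mRNAs, read 9.86 and 8.66 in human CAR livers, against 7.38 and 7.28 in wild-type livers (1.93, SE 0.37, adjusted p = 0.014). In each of these the groups did not overlap and replicate 1 was the higher human CAR mouse.

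Over the early growth and immediate early genes, 17 of 23 listed were tested, with 3 higher (Egr1, Junb and Zfp36) and 1 lower in human CAR livers, beside 0.753% and 1.44% of all genes. The lower one was Dusp6, a phosphatase of ERK, at 6.13 and 6.79 in human CAR livers against 7.44 and 7.39 in wild-type livers (-0.95, SE 0.24, adjusted p = 0.0498). Dusp6 lost its call in 12 of 15 alternatives. The median difference was 0.78, with 1.91 in replicate 1 and 0.23 in replicate 2. Replicate 1 lay over 2-fold above wild type in 10 of the 17 genes and replicate 2 in 4. Gadd45b, known to be induced by CAR activators, read 7.67 and 6.79 in human CAR livers and 7.82 and 7.90 in wild-type livers (-0.63, adjusted p = 0.243).

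Acute phase genes code for proteins that hepatocytes secrete in inflammation. The list used here also holds receptors and signalling factors, such as Il1r1, Cd14, Socs3 and Stat3, and the chemokine Cxcl1. Of 27 tested (28 listed) 6 were called higher and 0 lower, beside 0.753% and 1.44% of all genes. The 6 were Cxcl1, Il1r1, Hamp, Serpina3n, Saa4 (1.20) and Itih3 (0.84). The difference was positive for all 27, and the human CAR arrays lay above the wild-type arrays for 26, beside 22.6% of all genes. The median difference was 0.62, with 0.85 in replicate 1 and 0.48 in replicate 2, against -0.02 over all genes and -0.02 for the list on corn oil. Hamp, hepcidin, which limits iron release, read 12.36 and 12.16 in human CAR livers, against 10.98 and 9.79 in wild-type livers (1.87, SE 0.43, adjusted p = 0.0321), by a probe set that can read its copy Hamp2. Serpina3n, a protease inhibitor, read 12.46 and 11.02 in human CAR livers, against 10.03 and 10.26 in wild-type livers (1.59, SE 0.37, adjusted p = 0.0351). Il1r1, the interleukin 1 receptor, read 9.98 and 8.04 in human CAR livers, against 7.08 and 6.64 in wild-type livers (2.15, SE 0.54, adjusted p = 0.0488). Il1r1 lost its call in 11 of 15 alternatives.

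Some genes of the acute phase list were high in 1 human CAR mouse. Saa3, a serum amyloid A, read 11.78 and 7.90 in human CAR livers, against 7.05 and 7.16 in wild-type livers, and was not called (adjusted p = 0.205). Cd14, a receptor for bacterial lipopolysaccharide, read 9.24 and 5.43 in human CAR livers, against 4.90 and 4.99 in wild-type livers (adjusted p = 0.114). The wild-type mean of Cd14 lay below the dim limit. Part of the neutrophil and monocyte markers were also highest in replicate 1. Of 9 tested, 4 lay over 2-fold above wild type in replicate 1 and 0 in replicate 2. S100a8 stood 3.58 above the wild-type mean in replicate 1 and 0.24 in replicate 2. That wild-type mean, 4.94, lay below the dim limit, so the size of these differences rests on dim values. Mpo, at 0.07 and 0.13, and Elane, at 0.07 and 0.05, did not follow. Of 9 tested neutrophil and monocyte markers (13 listed) 0 were called by limma, but the summed linear signal of the list was 1576 in human CAR replicate 1 and 478 in replicate 2, against 432 and 409 in wild-type livers, and 1 of the 10 on the array was below the dim limit on all 4. S100a9 read 9.38 and 6.56 in human CAR livers, against 6.02 and 5.76 in wild-type livers (adjusted p = 0.0886). The part of such cells in the acute phase values was not tested.

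Kupffer cell markers did not follow. Of 15 tested (16 listed) 0 were called by limma, their median was -0.16, and the summed signal was 2239 and 3264 in human CAR livers, against 3614 and 3189 in wild-type livers. Of 14 endothelial markers Ehd3 alone was called, at 6.11 and 6.32 in human CAR livers against 7.25 and 6.98 in wild-type livers (-0.90, SE 0.21, adjusted p = 0.0344), and the summed signal of the list was 1218 and 1589 in human CAR livers, against 2327 and 1931 in wild-type livers. Of 14 tested stellate cell and fibroblast markers Rgs5 was called higher, at 7.27 and 7.01 in human CAR livers against 6.20 and 5.96 in wild-type livers (1.06, SE 0.21, adjusted p = 0.0155), while its other probe sets gave 1.87, 0.31 and -0.04. Their summed signal was 1577 and 1912 in human CAR livers, against 1821 and 1662 in wild-type livers. The 1 lower endothelial marker and the 1 higher stellate cell marker stand beside 1.44% and 0.753% of all genes.

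**Figure D4:**
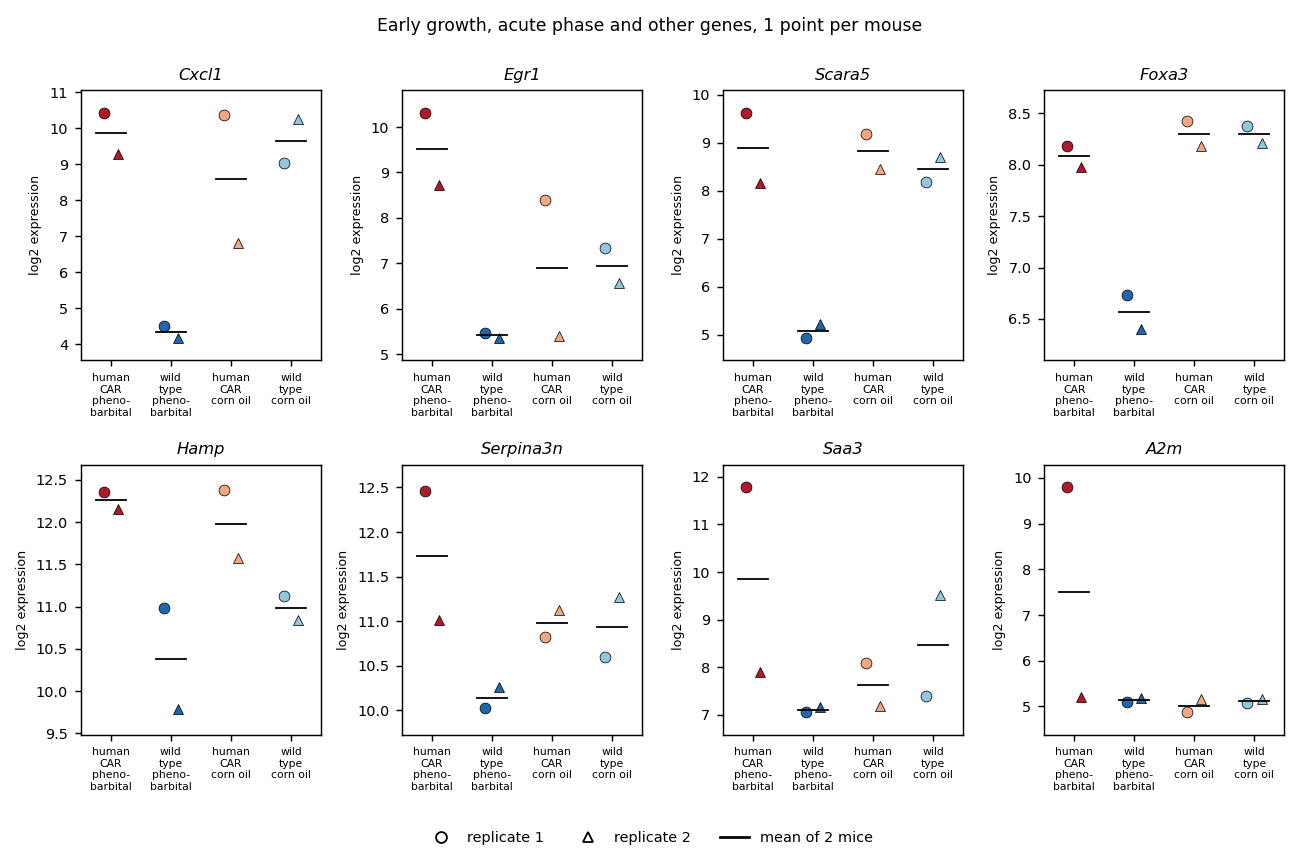
Log2 expression of 8 genes (1 panel each), with 1 point per mouse and a bar at the mean of 2 mice, for human CAR and wild type under phenobarbital and then on corn oil. Cxcl1, Scara5 and Foxa3 were low on the 2 wild-type phenobarbital arrays and higher on both human CAR ones, while Saa3 and A2m were high in human CAR replicate 1 (circle, 11.78 and 9.80) and not in replicate 2.

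Several called genes stood low in the wild-type phenobarbital mice rather than high in the human CAR mice. Scara5, a receptor for ferritin, read 9.62 and 8.16 in human CAR livers, against 4.94 and 5.23 in wild-type livers (3.81, SE 0.72, adjusted p = 0.0132), with corn oil values of 9.18 and 8.46 in human CAR livers and 8.18 and 8.71 in wild-type livers. Its other, dimmer probe set gave -0.02. Foxa3, a liver transcription factor, read 8.19 and 7.98 in human CAR livers, against 6.74 and 6.40 in wild-type livers (1.51, SE 0.27, adjusted p = 0.00988), and lay between 8.18 and 8.42 on corn oil in both genotypes. Steap4, a metalloreductase, read 12.59 and 9.84 in human CAR livers, against 8.01 and 8.82 in wild-type livers (2.79, SE 0.62, adjusted p = 0.0294), with corn oil values from 10.36 to 10.87. Here the human CAR mice lay on either side of the corn oil range and the wild-type mice below it.

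Counted over the calls, both phenobarbital pairs can be placed against the range of the 4 human CAR and wild-type corn oil arrays. Of the 69 higher genes, 15 had only the human CAR pair outside that range, 44 only the wild-type pair, 6 both pairs and 4 neither. Of the 132 lower genes, 37 had only the human CAR pair outside, 61 only the wild-type pair, 33 both and 1 neither. Among all 9164 genes the shares were 17.8% for only the human CAR pair and 15.2% for only the wild-type pair, while 1187 genes had both pairs outside and 4958 neither. Called genes were chosen for a gap between the same 4 arrays, which favours a pair outside, so those shares measure no excess. A pair counted as outside only if both its arrays lay beyond the same end, and the human CAR pair was the more spread. These are counts of positions, with no test.

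Further genes near the top of the higher list were Chac1, which breaks down glutathione (2.41), Bcl3, a partner of NF-kB (2.26), Fkbp5, a co-chaperone of the glucocorticoid receptor (1.86), and Apobec1, which edits apolipoprotein B mRNA (1.84). Slc39a14, a zinc and iron carrier (1.72), and Xdh, xanthine dehydrogenase (1.68), were next. Adjusted p ran from 0.00883 for Xdh to 0.0498 for Slc39a14. Replicate 1 was the higher mouse in each. Against the wild-type mean Chac1 gave 3.60 in replicate 1 and 1.21 in replicate 2, and Bcl3 gave 3.22 and 1.29. Slc39a14 gave 2.52 in replicate 1 and 0.93 in replicate 2, and lost its call in 11 of 15 alternatives. Xdh gave 2.36 in replicate 1 and 0.99 in replicate 2. All 4 lost their call without human CAR replicate 1. Apobec1 read 8.71 and 6.67 in human CAR livers, against 5.85 and 5.86 in wild-type livers. Fkbp5 was more even, at 9.14 and 8.45 in human CAR livers against 6.72 and 7.14 in wild-type livers. Apobec1 and Fkbp5 lost their call too without human CAR replicate 1, and also without either wild-type array.

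Genes that differed strongly between the 2 human CAR mice are given as a description. A2m, a protease inhibitor, read 9.80 in human CAR replicate 1 and 5.22 in replicate 2, against 5.09 and 5.18 in wild-type livers. Ddit4 read 9.84 in replicate 1 and 5.80 in replicate 2, against 5.48 and 5.38 in wild-type livers, and Tifa 11.06 and 7.20, against 6.90 and 7.04. In these genes replicate 2 was near wild type. Pck1, the gatekeeper of gluconeogenesis, read 6.97 in replicate 1 and 10.55 in replicate 2, against 9.65 and 9.83 in wild-type livers, and G6pc, which releases glucose, 5.33 and 8.68, against 8.65 and 9.03. Here replicate 1 was the low one, and neither gene was called (adjusted p = 0.481 for Pck1 and 0.211 for G6pc). Dmbt1 was high in replicate 2, with 4.16 in replicate 1 and 8.58 in replicate 2, against 4.31 and 3.91 in wild-type livers. Its values in replicate 1 and in wild type lay below the dim limit. Cyp7a1, which sets the pace of bile acid synthesis, read 6.72 and 8.57 in human CAR livers, against 9.19 and 8.42 in wild-type livers, and was not called (-1.15, adjusted p = 0.517).

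Among nuclear receptors and liver transcription factors, 2 of 24 tested were higher (27 listed), Foxa3 and Cebpb, and 1 lower, Nr1i3. The shares of all genes were 0.753% higher and 1.44% lower. Cebpb, a factor of the acute phase response, read 9.86 and 9.25 in human CAR livers, against 8.61 and 8.43 in wild-type livers (1.03, SE 0.22, adjusted p = 0.022). The list's median was -0.08. Of 21 tested genes on a list of Nr1i3 and its chromosomal neighbours (28 listed), Nr1i3 itself and 1 neighbour, Nit1, were lower, beside 1.44% of all genes. Nit1 stood at 8.37 and 8.81 in human CAR livers against 9.11 and 9.10 in wild-type livers (-0.51, SE 0.13, adjusted p = 0.0451). Nit1 lost its call in 11 of 15 alternatives.

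Cell cycle and energy genes showed few calls, beside 0.753% of all genes higher and 1.44% lower. Of 24 tested S phase and mitosis genes (31 listed, 12 of them below the dim limit on all 4 arrays) Pcna, the clamp of DNA polymerase, was lower, at 7.67 and 7.68 in human CAR livers against 8.18 and 8.18 in wild-type livers (-0.51, SE 0.11, adjusted p = 0.0294). None of 29 fatty acid oxidation genes (median 0.04), 17 gluconeogenesis and fasting genes (-0.08), 14 clock genes (-0.16) and 19 cholesterol synthesis genes (-0.58) was called by limma after adjustment. The cholesterol genes had a median of -0.50 on corn oil as well, and both mice showed it under phenobarbital, at -0.48 in replicate 1 and -0.57 in replicate 2. Fdps, an enzyme of that pathway, read 8.60 and 8.33 in human CAR livers, against 9.42 and 9.97 in wild-type livers (-1.22, SE 0.53, adjusted p = 0.233).

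Stress and immune lists other than the acute phase also had few calls, beside 0.753% of all genes higher and 1.44% lower. Of 22 endoplasmic reticulum stress genes 21 had a positive difference, and the median was 0.31, with 0.43 in replicate 1 and 0.22 in replicate 2. Both human CAR arrays lay above both wild-type arrays for 15 of the 22, beside 22.6% of all genes. The 1 called, Trib3, was lower, at 5.18 and 5.22 in human CAR livers against 5.87 and 6.38 in wild-type livers (-0.93, SE 0.21, adjusted p = 0.0317). Of 17 tested interferon genes (28 listed) Iigp1, a GTPase of defence against parasites in cells, was higher, at 11.30 and 11.10 in human CAR livers against 10.28 and 10.32 in wild-type livers (0.90, SE 0.19, adjusted p = 0.0219). Of 12 tested NRF2 targets (17 listed) the 1 lower was Gstm1, which other lists hold too, and the median was -0.44. For 10 of the 12 both human CAR arrays lay below both wild-type arrays, beside 25.2% of all genes. The bile acid list had 1 of 17 lower, Fgfr4, a receptor for FGF15 (-0.65, with -0.35 to 0.10 on its other probe sets), and the respiratory chain 1 of 27, Cyc1 (-0.43). Fgfr4 and Cyc1 each lost their call in 9 of 15 alternatives.

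**Figure D5:**
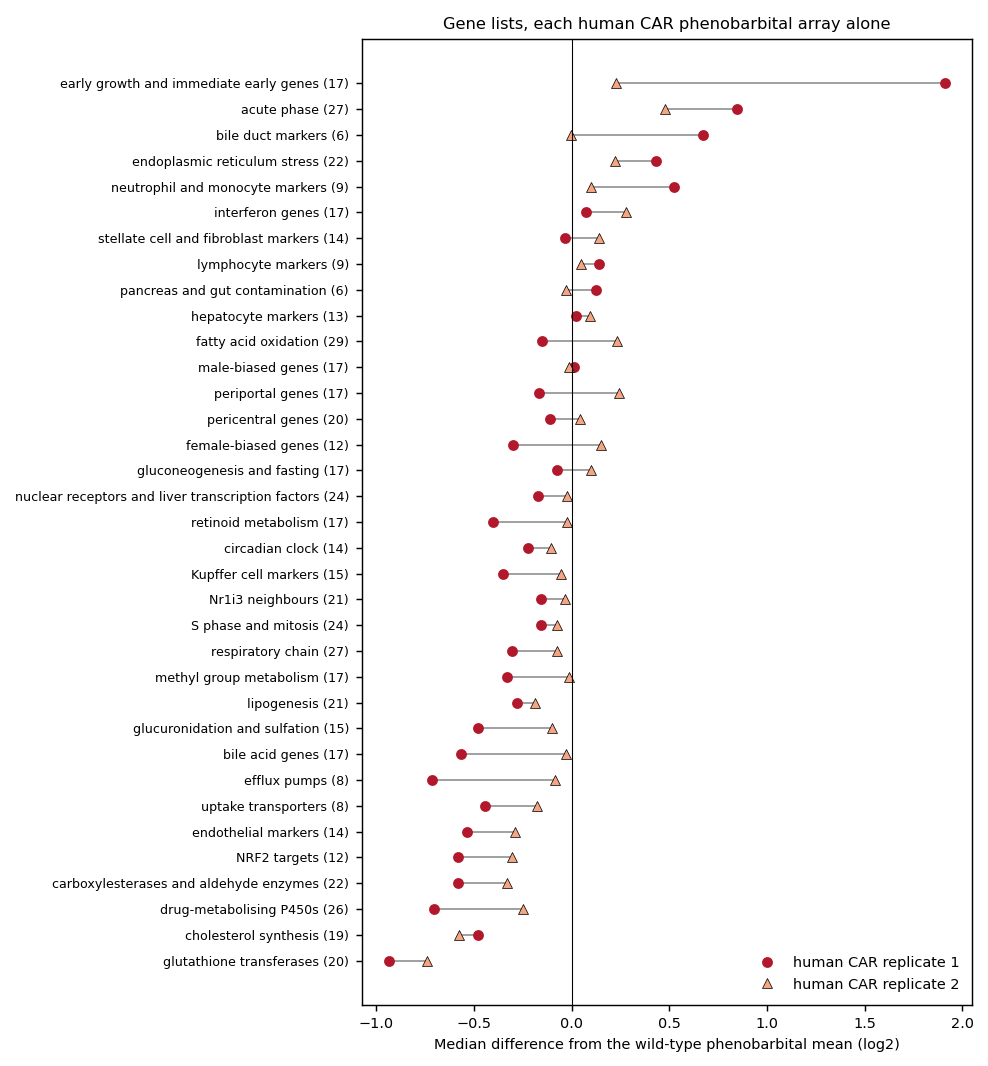
Median log2 difference of each gene list from the wild-type phenobarbital mean, with the number of genes tested in brackets, for human CAR replicate 1 (circles) and replicate 2 (triangles) alone. Glutathione transferases lay at -0.93 and -0.74 and the acute phase list at 0.85 and 0.48, while the early growth list lay at 1.91 in replicate 1 and 0.23 in replicate 2.

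The direct difference of a gene is its difference on corn oil plus the difference of the phenobarbital effects. Most of the 201 direct calls were called in neither part, with 13 called for the effects and 2 on corn oil. On corn oil 5 genes differed between human CAR and wild type, 0.0546% of genes (709, 7.74%, at an unadjusted p under 0.05). The 1 higher (0.0109%) was Cyp2b10, by 3.58, and the 4 lower (0.0436%) were Gstp3, Nr1i3, Spp2 and Plekhb2. Spp2, a secreted phosphoprotein, read 7.48 and 8.12 in human CAR livers on corn oil, against 9.18 and 9.02 in wild-type livers (-1.31, adjusted p = 0.046). Plekhb2 read 5.35 and 5.33 in human CAR livers on corn oil, against 6.43 and 6.25 in wild-type livers (-1.0, adjusted p = 0.00643). Under phenobarbital Spp2 and Plekhb2 were not called, and of the 5 corn oil genes 2 also differed under phenobarbital, Gstp3 and Nr1i3.

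The effect of phenobarbital itself differed between human CAR and wild type for 15 genes, 0.164% of genes, 3 higher (0.0327%) and 12 lower (0.131%) in human CAR, with 951 genes at an unadjusted p under 0.05 (10.4%). Of the 15, 13 also differed directly under phenobarbital. The count hung on single arrays: it was 0 without wild-type corn oil replicate 1, 2 without wild-type phenobarbital replicate 2, 4 without either wild-type corn oil replicate 2 or human CAR corn oil replicate 1, 7 without either wild-type phenobarbital replicate 1 or human CAR phenobarbital replicate 1, and 637 without human CAR phenobarbital replicate 2. On corn oil the count of 5 was 3 without wild-type replicate 1 or human CAR replicate 1 and 22 without human CAR replicate 2.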

How the data were processed

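Liver RNA of 24 mice labelled female, 2 in each of 12 groups, had been hybridised to Affymetrix arrays, 1 mouse per array. Xist, of X inactivation, and the Y-linked Eif2s3y were low on the phenobarbital arrays. Their summed linear signal was 69.3 and 68.0 in human CAR livers, against 62.9 and 67.2 in wild-type livers. Other probe sets of Xist averaged 3.31 and 2.99 on these 4 arrays, below the dim limit. The 17 tested male-biased genes (24 listed) summed to 13971 and 14900 in human CAR livers, against 16034 and 13339 in wild-type livers. For the 12 tested female-biased genes (23 listed) the sums were 1474 and 1618, against 925 and 1061. These lists hold different genes, and the sex given by the labels was not tested. The deposited values are log2 expression that the authors computed by RMA using R 2.15.0, per the submitters' processing notes. They ran from 2.03 to 14.1 with none missing, and array medians were 5.41 to 5.51. A table of 22690 probe sets was given, 64 of them controls. Of the rest, 20380 had 1 gene symbol, 691 several and 1555 none, and gene IDs matched RefSeq for 20351.

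The brightest probe set by its mean over 24 arrays stood for each of 12393 genes. A gene was tested if at least 2 arrays held it above their 40th percentile, which left 9164. A model of 12 group means over the 24 arrays, without a block, was fitted in limma 3.58.1 (R 4.3.3), which adjusted p-values (Benjamini-Hochberg) over the 9164 genes. The contrasts were human CAR minus wild type under phenobarbital, the same on corn oil, and the difference of the phenobarbital effects. Folds are 2 to the power of a difference, and summed linear signals add such powers over a list. The precision is limited by 2 mice a group, since arrays give no read depth. On simulated data with 200 changed genes of 9164, the direct contrast recovered 90.95% of 2-fold and 98.35% of 4-fold changes. The difference of effects recovered 72.6% and 95.55%. The simulated noise was independent, with 1 spread per gene for all 24 arrays. The real human CAR phenobarbital pair differed with an SD of 0.435 over genes, against 0.178 in the wild-type pair. These rates therefore do not describe arrays that vary unequally.

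Members and gene lists were chosen with earlier results of these data known. Named genes were the 15 highest and 15 lowest called genes whose groups did not overlap, the markers Inmt, Rarb, Gstm1 and Glul, the receptor gene, the P450s Cyp1a2, Cyp2b10, Cyp2c55, Cyp3a11 and Cyp7a1, the genes Gadd45b and Pck1, up to 4 called genes per list (or 2 uncalled), and the leading genes of the other contrasts and of the human CAR pair's difference. Genes named beyond these were chosen after their values were seen. They include Cyp26a1, Gstp1 and Saa4. No array was a copy of another: the largest share of equal values in 276 pairs was 0.0486%.

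Deviations of same-numbered human CAR and wild-type mice from their group means correlated at 0.0206 under phenobarbital and -0.115 on corn oil. Between phenobarbital and corn oil they correlated at -0.0361 in human CAR mice and 0.155 in wild-type mice. Since the labels tie no mice together and not every value was over 0.1, the numbers were not taken as pairs. Alternatives changed the dim filter, the normalization, the probe set rule, the variance model, the block and the arrays used. Matplotlib 3.10.9, pandas 2.3.3 and numpy 2.4.6 under Python 3.11.15 were used for tables and figures.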

Additional observations from a re-analysis of the deposited data

Results flagged for a closer look

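For 12 named genes the effect of phenobarbital in human CAR mice differed from that in wild-type mice by the interaction test of limma. The difference of effects was negative for Cyp2b10 (-4.26), Cyp2c55 (-3.27), Inmt (-2.97), Rarb (-2.02), Slc25a37 (-1.56), Fhit (-1.42), Cdk18 (-1.38), Gstm1 (-1.35) and Slc13a2 (-1.31). It was positive for Glul (1.93), Bhmt (1.23) and Plekhb2 (1.07). Of these 12, Cyp2b10 and Plekhb2 were the ones not called in the direct contrast under phenobarbital, and both had a called difference on corn oil.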

How the results depend on the processing

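The count of 201 calls under phenobarbital was 116 with array weights, 78 at 2-fold or more, 39 without the 2 arrays that stood apart and 1 with the 4 arrays alone (1056 at an unadjusted p under 0.05), and 15 to 1341 with 1 array left out. The 15 different phenobarbital effects became 26 with the mean of probe sets, 9 without the 2 arrays that stood apart, 5 with human CAR and wild-type arrays alone, 4 with array weights, 4 with the compared groups alone, and 0 to 637 with 1 array left out. The 5 corn oil calls became 12 without the 2 arrays that stood apart, 2 with human CAR and wild-type arrays alone and 3 to 22 with 1 array left out. The cause of these shifts was not tested, beyond fewer arrays in some.

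With the replicate number as a block there were 205 calls under phenobarbital, 13 for the effects and 8 on corn oil. The human CAR corn oil numbers crossed, an alternative chosen after seeing the data, also gave 8. Same-numbered mice shared only a number.

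Over 98 genes, 1126 alternative values kept direction and side of the threshold, 316 lost the call, 14 gained it and 8 turned sign. With 1 array left out, Cela1 ran from -0.849 to 0.0628, Krt18 from -0.0735 to 1.33, Pck1 from -2.77 to 0.808, Plekhb2 from -0.0497 to 0.190 and Xist from -0.0472 to 0.109. Without the 2 arrays that stood apart, Krt18 was also -0.0735 and Pck1 0.808, and with cyclic loess Xist was -0.00099. These 5 genes were not called under phenobarbital with all arrays, and without human CAR replicate 2 Krt18 (1.33, adjusted p = 0.00258) and Pck1 (-2.77, adjusted p = 5.37e-06) were. Of 33 other probe sets of called named genes, 5 had the opposite sign.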
